A study of Mus musculus with 12 samples.

Results

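The comparison described here set SmoM2 against wild type granule cell progenitors of the cerebellar vermis, the midline part of the cerebellum. Its members were chosen by the array titles, and they are 6 of the 12 arrays of the series, 3 of SmoM2 vermis and 3 of wild type vermis. The remaining 6 arrays held progenitors of the hemispheres of both genotypes. All mice were taken at postnatal day 8 and were of a mixed background with C57BL/6 and Swiss Webster. The SmoM2 mice carried Atoh1-CreER/+ and R26LSL-SmoM2-YFP and received 200 µg of tamoxifen per g at postnatal day 2. Each array read cells of 5 pooled mice isolated on a Percoll gradient, so an array is a pool and not an animal. The genotype of the second group is given only as wild type, and the sources used here do not say whether it carried the Cre allele or was given tamoxifen.

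Granule cell progenitors lie in the external granule layer of the young cerebellum, divide there in response to Sonic hedgehog from Purkinje cells, and then leave the cycle and migrate inwards as granule neurons. Without ligand the receptor Ptch1 holds Smoothened (Smo) inactive, and with ligand Smo is released and the Gli factors switch on target genes. SmoM2 is a form of Smo that signals without ligand, and in this design it is made only after Cre has removed a stop cassette in cells with Atoh1 activity. Progenitors with unchecked hedgehog signalling can give rise to medulloblastoma. The comparison asks which genes differ between progenitors with and without this constant signal in the vermis.

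Values are log2 expression values, so a difference of 1 is a 2-fold difference, and the values of single arrays are given in the order of replicates 1, 2 and 3. The Smo gene itself was read by 3 probe sets. Its brightest one read 9.29, 9.22 and 9.37 in wild type and 9.67, 9.55 and 9.5 in SmoM2, without overlap, and the difference of 0.28 (SE 0.10) did not pass (limma, adjusted p = 0.0741). It passed with adjusted p between 0.039 and 0.0484 in 3 of the alternative settings. The next probe set read 7.77, 7.54 and 7.39 against 8.01, 7.98 and 7.98, and passed in a fit of all probe sets (0.43, SE 0.13, adjusted p = 0.0466). The dimmest read 3.31, 3.08 and 3.29 against 3.47, 3.34 and 3.23, where the groups overlapped. The sources used here do not say whether these probes read the SmoM2 transcript as well as the native one, so Smo checks the labels only in part.

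The arrays of a group resembled each other closely. Over all probe sets, wild type vermis arrays correlated with each other at 0.992 to 0.993, SmoM2 vermis arrays at 0.995 to 0.996, and arrays of different genotype at 0.983 to 0.988. Lower quartiles of all arrays lay between 3.24 and 3.42, and a gene near or below that level has no known distance from background. In the vermis they were 3.33, 3.41 and 3.39 in wild type and lower in SmoM2, at 3.24, 3.24 and 3.29. Upper quartiles were 7.02, 6.94 and 6.96 in wild type and higher in SmoM2, at 7.09, 7.1 and 7.04. Progenitor genes read well above the lower quartiles in both groups, among them Atoh1 (7.75 to 8.01 in wild type), Pax6 (10.96 to 11.09) and the zinc finger gene Zic1 (12.90 to 13.10). The signal of the 18S rRNA control was higher in SmoM2 (11.15, 11.23 and 11.30) than in wild type (10.59, 10.52 and 10.85), and the 3' minus 5' difference of Actb was 0.88 to 0.90 in wild type and 0.89 to 1.07 in SmoM2. Markers of oligodendrocytes, microglia and interneurons were lower in SmoM2, as given further on, and the part of these measures in the differences was not tested.

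Of 18194 genes, 3096 (17%) passed at an adjusted p under 0.05. In SmoM2, 1375 genes (7.56%) rose and 1721 (9.46%) fell, and 444 of the genes that passed differed at least 2-fold, 256 upwards and 188 downwards. The 3 arrays of a group all lay above the 3 of the other for 7238 genes (39.8%). The median difference over all genes was -0.06, and the 3 arrays of a vermis group had a median SD of 0.12. The number of passing genes without single arrays was 1756 without SmoM2 array 2, 1795 without SmoM2 array 1, 1873 without wild type array 2 and 1920 without wild type array 3. In the text below a call is said to have held if it passed in the same direction in all 17 settings in which the gene was tested, which comprise the reported fit, other normalizations, filters and designs, and leaving out each vermis array in turn.

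The largest rise was that of Sowaha, an ankyrin repeat gene, which read 3.21, 3.41 and 3.88 in wild type and 9.53, 9.63 and 9.69 in SmoM2. The difference of 6.12 (SE 0.14) was 69.4-fold (limma, adjusted p = 4.92e-12). Nptx1, a secreted neuronal pentraxin of synapses, read 4.40, 3.80 and 3.45 against 8.48, 8.76 and 8.90, a difference of 4.83 (SE 0.27). In wild type both genes lay close to the lower quartiles of the arrays, so their folds have no measured floor, while every SmoM2 array was clearly above that level. Pdlim3, whose product binds the actin cytoskeleton, was well measured on both sides, at 6.84, 6.50 and 6.72 against 9.74, 9.92 and 9.82, a rise of 3.14 (SE 0.13). The other genes among the 15 largest rises were Foxa2, Vip, Cbln4, Saa1, Rbp4, Crispld1, Sema3e, Doc2b, Syt13, Etv5, Crym and the adenylate cyclase Adcy7, with differences between 2.94 and 3.80. They include a ventral transcription factor, secreted synapse proteins, carriers of retinol and thyroid hormone, and proteins of vesicle release, each described below.

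The largest fall was that of Slc17a6, the vesicular glutamate transporter VGLUT2, which loads glutamate into synaptic vesicles. It read 8.81, 9.06 and 9.71 in wild type and 5.83, 6.33 and 5.70 in SmoM2, a difference of -3.24 (SE 0.27, 9.44-fold; limma, adjusted p = 2.38e-06). Ppp2r2b, a regulatory subunit of protein phosphatase 2A, was tightly measured in wild type at 9.88, 9.85 and 9.82, and read 8.10, 7.94 and 7.85 in SmoM2. The tetraspanin Tspan4 read 8.07, 7.76 and 8.30 against 6.24, 6.41 and 5.83. No SmoM2 array reached a wild type array for these genes. The 15 largest falls also held Igfbp5, Dmrta1, Eomes, Adipoq, Tnr, Gad1, Sema3d, the myelin genes Mobp, Ugt8a and Mag, and the unnamed transcripts A930009L07Rik and 9630013A20Rik, with differences between -2.78 and -1.87. The calls of all 30 genes held.

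**Figure D1:**
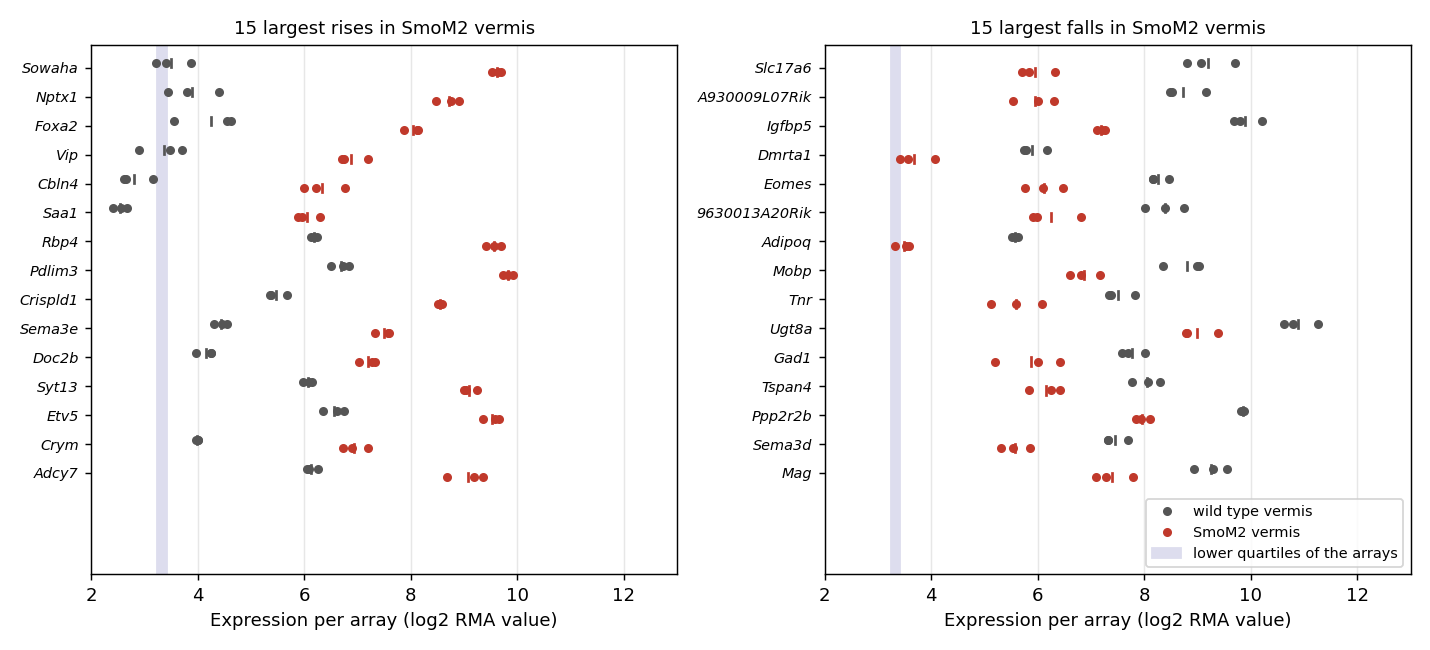
Log2 expression per array (horizontal axis) of the 15 genes with the largest rises (left) and the 15 with the largest falls (right) in SmoM2 vermis. Dots are the 3 arrays of wild type vermis (grey) and SmoM2 vermis (red), ticks are group means, and the shaded band spans the lower quartiles of the arrays, 3.24 to 3.42. Groups do not overlap for any gene shown, which the choice of genes required; Sowaha, Nptx1, Vip, Cbln4 and Saa1 lie near or below the band in wild type.

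Hedgehog targets and feedback genes were the first group examined. Of 19 measured, 9 rose and 4 fell, against 7.56% and 9.46% of all genes, and the median difference was 0.36. The lists used here and below were chosen with earlier results of these data known. Of all 1012 measured list members, 18.7% rose and 20.8% fell, so a list can exceed the shares of all genes without standing out among the lists. Gli1, the transcriptional activator whose level is the usual readout of the pathway, read 7.28, 6.93 and 7.25 in wild type and 8.55, 8.81 and 8.61 in SmoM2, a rise of 1.5 (SE 0.14, 2.83-fold; limma, adjusted p = 7.84e-06). Ptch1, the receptor that restrains Smo, read 10.48, 10.66 and 10.62 against 12.34, 12.48 and 12.42, a rise of 1.83 (SE 0.10). Hhip, a membrane protein that binds and sequesters the ligand, read 6.18, 6.47 and 5.59 against 8.58, 8.78 and 8.71, a rise of 2.61 (SE 0.23, 6.09-fold). Both negative regulators thus rose together with the activator, and no SmoM2 array came near the wild type range.

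Among targets that act on growth and survival, cyclin D1 (Ccnd1), which drives cells out of G1, read 9.22, 9.23 and 9.62 in wild type and 10.99, 11.06 and 10.81 in SmoM2. Its rise was 1.59 (SE 0.15; limma, adjusted p = 4.99e-06). Its kinase partner Cdk6 read 8.46, 8.42 and 8.55 against 10.57, 10.65 and 10.63, a rise of 2.14 (SE 0.09, 4.42-fold). Bcl2, which protects cells from apoptosis, read 6.68, 6.14 and 6.27 against 7.57, 7.61 and 7.44, a rise of 1.18 (SE 0.16). Mycn, a growth regulator of these progenitors, read 9.10, 9.13 and 9.51 against 9.61, 9.67 and 9.67, and its difference of 0.41 (SE 0.14) did not pass (adjusted p = 0.055), although it passed in 7 of the other settings, among them that without wild type array 3 (0.54, adjusted p = 0.023). In a fit of all probe sets, another of its 3 probe sets passed in the same direction (0.38, adjusted p = 0.0412). Not all listed targets were higher. Ccnd2 read 12.23, 12.21 and 12.25 against 12.01, 12.17 and 11.97, a difference of -0.18 (SE 0.09) that did not pass (adjusted p = 0.202). Igf2, a growth factor gene also listed as a target, read 9.95 to 10.17 in wild type and 9.22, 9.23 and 9.49 in SmoM2, a difference of -0.73 (SE 0.15). It is also on the list of meningeal and fibroblast markers, whose level was lower in SmoM2, and the part of those cells was not tested. With only the brighter genes, 14 targets were tested, of which 9 rose and 1 fell. After quantile normalization again, 8 of the 19 targets rose and 1 fell. The calls of 7 of the rises and of the Igf2 fall held; the number of targets that fell was 2 without any of wild type arrays 2 and 3 and SmoM2 arrays 1 and 2, and 1 without SmoM2 array 3.

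**Figure D2:**
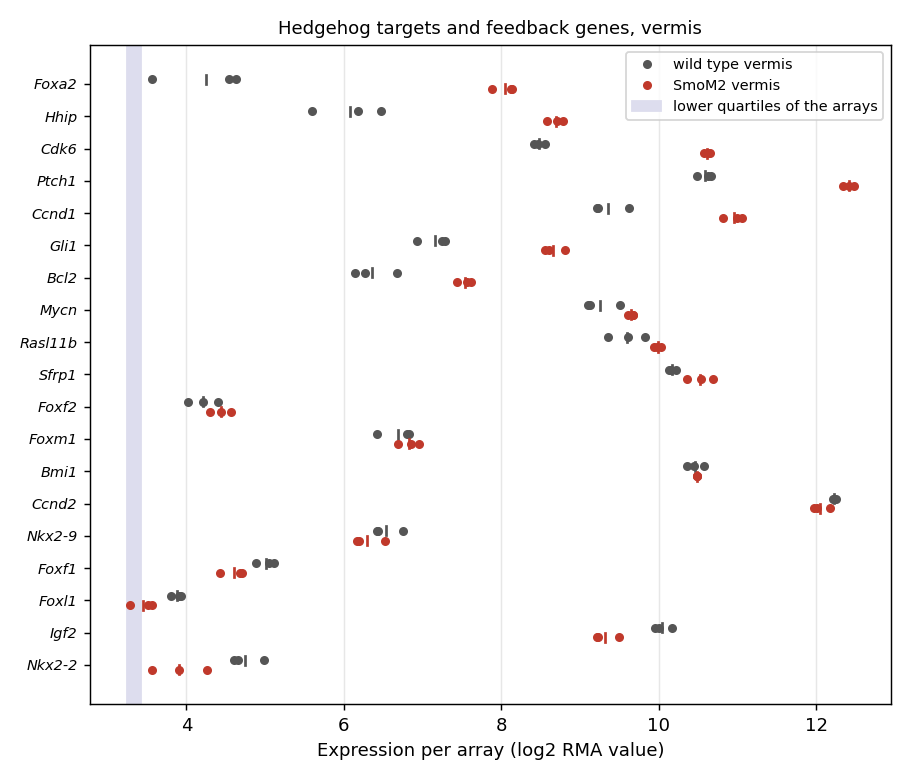
Log2 expression per array (horizontal axis) of the 19 measured hedgehog targets and feedback genes, ordered by the SmoM2 minus wild type difference in the vermis. Dots are single arrays of wild type (grey) and SmoM2 (red), ticks are group means, and the band spans the lower quartiles of the arrays; all SmoM2 arrays lie above all wild type arrays for 10 genes, with the widest gaps for Foxa2, Hhip, Cdk6 and Ptch1, and below them for 5, among them Igf2.

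Promoter sequence was set beside these values because Gli factors bind the letters GACCACCCA. In RefSeq promoter windows of the mouse (GRCm38.p6; 250 bases before to 50 after the start, 300 in all), both strands were searched for this sequence and for its core CCACCC, which lies inside it. The consensus was in 83 of 32851 windows (0.253%) and the core in 31.5%. Of the 9 hedgehog targets that rose, 6 had a window; 0 of these held the consensus and 3 held the core. Of 34 measured genes with the consensus in the window, 9 rose (26.5%) and 2 fell (5.88%), where 7.65% rose and 9.21% fell among all 14453 measured genes with a window. Their median difference was 0.03, against -0.05 for all genes with a window. Of the 5818 measured genes with the core, 8.06% rose and 10.5% fell, with a median of -0.06. A match describes letters in a window and does not show binding. The windows of Hhip, the target with the core and the largest rise, and of Cltb, the gene with the consensus and the largest rise, are shown for the 250 bases before the start, on the minus strand at chr8:80058009-80058258 and chr13:54611374-54611623, with the core (Hhip) or the consensus (Cltb) in capitals.
Hhip: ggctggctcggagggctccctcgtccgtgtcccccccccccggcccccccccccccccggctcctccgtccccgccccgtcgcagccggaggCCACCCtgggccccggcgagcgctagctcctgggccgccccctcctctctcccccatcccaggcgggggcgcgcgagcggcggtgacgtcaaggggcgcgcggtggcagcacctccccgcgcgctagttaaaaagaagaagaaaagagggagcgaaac
Cltb: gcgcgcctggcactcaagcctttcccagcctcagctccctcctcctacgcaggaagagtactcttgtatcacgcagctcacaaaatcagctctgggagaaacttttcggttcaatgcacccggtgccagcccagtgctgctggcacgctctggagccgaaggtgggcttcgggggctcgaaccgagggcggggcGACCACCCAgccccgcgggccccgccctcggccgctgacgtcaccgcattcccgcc
The match starts at base 93 of the Hhip stretch and at base 195 of the Cltb stretch. Cltb, a clathrin light chain, read 7.51, 7.71 and 7.86 in wild type and 9.16, 9.29 and 9.26 in SmoM2, a rise of 1.54 (SE 0.15; limma, adjusted p = 1e-05). It was named after its values were seen.

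Genes of hedgehog reception and transduction moved less. Of 25 measured, 8 rose and 1 fell, with a median difference of 0.08. The co-receptors that help present ligand to Ptch1 stood out among the calls. Gas1 read 9.71, 9.64 and 10.12 in wild type and 10.71, 10.83 and 10.79 in SmoM2, a rise of 0.96 (SE 0.17; limma, adjusted p = 0.0019). Boc read 7.92, 7.76 and 7.92 against 8.43, 8.6 and 8.5, a rise of 0.64 (SE 0.10). The third co-receptor, Cdon, rose by 0.76 (SE 0.13) on its brightest probe set, but the mean of its 2 probe sets differed by 0.21 (adjusted p = 0.221). Spop, an adaptor of Gli protein breakdown, rose by 0.47 (SE 0.11), and the Ptch1 relative Ptchd1 fell by 0.74 (SE 0.14). The Gli repressor Gli3 read 7.37, 6.91 and 6.86 against 6.94, 6.74 and 6.65, where the groups overlapped, and did not pass (adjusted p = 0.225). Gas1, Boc, Spop and Ptchd1 were the calls of this list that held; the count of rises was 4 without wild type array 2 or SmoM2 array 1 and 5 without wild type array 1 or SmoM2 arrays 2 or 3.

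Transcription factors of the ventral and dorsal neural tube, where graded hedgehog signal sets cell identity, included some of the steepest changes. Of 20 measured, 6 rose and 4 fell. Foxa2, the forkhead factor of the floor plate, read 3.56, 4.54 and 4.63 in wild type and 8.12, 8.13 and 7.88 in SmoM2, a rise of 3.80 (SE 0.24, 13.9-fold; limma, adjusted p = 9.59e-08). Its wild type array 1 lay close to the lower quartiles of the arrays, so this fold has no firm floor. Dbx1, a homeobox factor of intermediate progenitor domains, read 4.35, 4.59 and 4.43 against 7.23, 7.18 and 7.27, a rise of 2.77 (SE 0.17). The 3 Olig factors, which pattern progenitors and, for Olig1 and Olig2, specify oligodendrocytes, all rose. Olig3 read 4.04, 3.60 and 3.54 against 6.02, 5.98 and 5.70, Olig2 read 5.21, 5.44 and 5.27 against 6.60, 7.05 and 6.66, and Olig1 read 8.13, 8.29 and 8.35 against 9.44, 9.40 and 9.21. In wild type, Olig3 was close to the lower quartiles. Pax3, a dorsal factor, fell from 8.70, 8.78 and 8.56 to 7.89, 7.83 and 7.75, a difference of -0.86 (SE 0.11). The remaining ventral calls were less steady. The falls numbered 2, in place of 4, without SmoM2 array 3, and 1 after quantile normalization again. In the list of cerebellar patterning and regional factors 2 of 22 members rose and 4 fell; the number that fell was 2 without wild type array 3 or SmoM2 arrays 1 or 3, 1 without wild type array 2, and 0 by limma without SmoM2 array 2.

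The machinery of DNA replication and of the G1/S transition was higher in SmoM2. Of 41 measured, 24 rose and the other 17 did not pass, each of the 41 differed upwards, and the median difference was 0.40. The minichromosome maintenance genes encode the replicative helicase. Mcm3 read 9.22, 9.23 and 9.10 in wild type and 9.93, 9.78 and 9.73 in SmoM2, a rise of 0.63 (SE 0.10; limma, adjusted p = 0.000833), and Mcm4 read 10.05, 9.78 and 9.87 against 10.40, 10.59 and 10.47. Cdc6, which loads that helicase, rose by 0.62 (SE 0.11), the polymerase subunit gene Pole by 0.59 (SE 0.11), the ribonucleotide reductase gene Rrm2 by 0.51 (SE 0.10) and the factor E2f7 by 0.44 (SE 0.10). Most changes were thus below 2-fold, yet larger than the spread between arrays. The proliferation genes Pcna (0.17, SE 0.09, adjusted p = 0.227) and Top2a (0.21, SE 0.11, adjusted p = 0.222) did not pass on their brightest probe sets; in a fit of all probe sets, another of the 3 for Top2a did (0.58, adjusted p = 0.0452). Of the rises, 8 held, and the count was 12 without wild type array 2 or SmoM2 array 2, 14 without SmoM2 array 1 and 15 without wild type array 3.

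Genes of mitosis and cytokinesis pointed the same way with less certainty. Of 39 measured, 13 rose and 26 did not pass, while all 39 differed upwards with a median of 0.35. The mean level of the list was 8.76 to 9.10 in the wild type arrays and 9.21 to 9.31 in the SmoM2 arrays. The kinesin Kif2c, which removes misattached microtubules, read 8.49, 8.22 and 8.03 against 8.84, 8.83 and 8.90, a rise of 0.61 (SE 0.15; limma, adjusted p = 0.0132), and did not pass without wild type array 3 (0.50, adjusted p = 0.062) or for the mean of its probe sets (0.16, adjusted p = 0.33). Mki67, the proliferation marker, read 11.59, 11.36 and 11.40 against 11.63, 11.75 and 11.80 and did not pass (0.28, SE 0.10, adjusted p = 0.0661); it passed in 6 other settings, among them that without wild type array 1 (0.35, adjusted p = 0.0373). The list's count rested on single arrays: it was 21 without wild type array 1, 2 without wild type array 2, 0 without wild type array 3 (limma in each case), and 5, 1 and 4 without SmoM2 arrays 1, 2 and 3. None of the calls held in all settings.

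Of 15 D cyclins, cyclin-dependent kinases and their inhibitors, 5 rose and the others did not pass. Besides Ccnd1 and Cdk6 these included the inhibitor Cdkn1c, which restrains the cycle, at 7.53, 7.66 and 7.65 in wild type and 8.38, 8.24 and 8.19 in SmoM2 (0.66, SE 0.13; limma, adjusted p = 0.00269). Drivers and a brake of G1 were therefore higher in the same arrays. Ribosome biogenesis genes also rose, 17 of 30 measured with a median of 0.38. Polr1a, the large subunit of the polymerase that transcribes rRNA, read 6.12, 5.68 and 5.57 against 6.68, 6.62 and 6.67, a rise of 0.87 (SE 0.14). The processing factor Rrp12 rose by 0.77 (SE 0.17) and dyskerin (Dkc1), which modifies rRNA, by 0.62 (SE 0.12). Of the 17 rises, 6 held; the count was 9 without wild type arrays 2 or 3, 7 without SmoM2 array 1 and 6 without SmoM2 array 2. The 18S control signal was higher in the same SmoM2 arrays, and its part in this result was not tested.

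Among genes that mark granule progenitors, 5 of 24 measured rose and 3 fell, with a median of -0.09, so the list did not move as one. Atoh1, the factor that defines the lineage, read 7.75, 8.01 and 7.80 in wild type and 8.67, 8.65 and 8.80 in SmoM2, a rise of 0.85 (SE 0.12; limma, adjusted p = 0.000236). The chemokine receptor Cxcr4, which holds progenitors near the meninges, read 7.80, 8.10 and 7.80 against 9.11, 9.38 and 9.42, a rise of 1.41 (SE 0.13, 2.65-fold). The stem cell factor Sox2 rose by 0.57 (SE 0.11). In the other direction, Pax6 fell from 10.96, 11.07 and 11.09 to 10.38, 10.53 and 10.52, a difference of -0.56 (SE 0.09), and the matrix gene Mfap4 fell by 0.60 (SE 0.13). Zic1 read 12.95, 12.90 and 13.10 against 12.88, 12.77 and 12.87 and did not pass (adjusted p = 0.326). Each of these 5 calls held; the number of rises was 3 without SmoM2 array 2.

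Genes of granule neuron differentiation were lower in SmoM2. Of 39 measured, 20 fell and 1 rose, with a median of -0.39, and 16 of the falls held. Neurod1, the factor that drives progenitors into differentiation, read 12.96, 12.97 and 13.09 in wild type and 12.23, 12.17 and 12.17 in SmoM2, a difference of -0.82 (SE 0.09; limma, adjusted p = 3.17e-05), and Neurod2 fell by 0.96 (SE 0.16). Receptors and adhesion molecules of migrating granule cells fell further. The netrin receptor Unc5c read 9.76, 9.85 and 9.87 against 8.06, 8.00 and 7.93, a difference of -1.83 (SE 0.12, 3.56-fold), and the axonal adhesion molecule Cntn1 read 10.39, 10.48 and 10.5 against 8.71, 8.84 and 8.59, a difference of -1.74 (SE 0.14). Within each group these readings lay close together compared with the gap between groups. Cntn2, which marks cells that have just left the cycle, fell by 1.07 (SE 0.15), and Sema6a, a guidance molecule of migrating granule cells, fell by 1.0 (SE 0.11).

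The neuronal cytoskeleton belongs to the same list. Stmn2, a regulator of growing microtubules, read 11.67, 11.49 and 11.55 in wild type and 10.45, 10.44 and 10.30 in SmoM2, a difference of -1.18 (SE 0.11; limma, adjusted p = 4.92e-06). Nfasc, an adhesion molecule of the axon initial segment, fell by 1.78 (SE 0.13), the neurofilament gene Nefl fell by 1.73 (SE 0.24), the neuronal tubulin Tubb3 fell by 0.76 (SE 0.14) and doublecortin (Dcx) fell by 0.64 (SE 0.10). Nefl was the most variable of these, at 7.16, 7.88 and 7.95 against 6.14, 6.23 and 5.42. The single rise on the list was Neurod6 (0.61, SE 0.17, adjusted p = 0.0264), which did not pass without wild type array 2 (adjusted p = 0.081) or 3 (0.0854) or without SmoM2 array 1 (0.117) or 2 (0.0621). In pooled tissue, fewer cells of a type and less RNA per cell cannot be told apart, here and for the marker lists below.

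Growth factor signalling through receptor tyrosine kinases was among the groups with the most calls. Of 31 measured ligands, receptors and MAPK output genes, 15 rose and 1 fell, with a median of 0.32, and 11 of the rises held; 2 fell without wild type array 1. Among ligands, Pdgfa, the platelet-derived growth factor A chain, read 6.28, 6.84 and 6.82 in wild type and 8.83, 9.25 and 8.88 in SmoM2, a rise of 2.34 (SE 0.18, 5.07-fold; limma, adjusted p = 1.17e-06). Fgf5 rose by 2.05 (SE 0.16) and Fgf8, the growth factor of the midbrain-hindbrain organizer, by 1.42 (SE 0.16), both from wild type levels close to the lower quartiles. Pdgfc, another chain of the family, fell by 0.61 (SE 0.13). The neurotrophin receptor Ntrk3 read 7.44, 6.95 and 7.15 against 9.42, 9.42 and 9.67, a rise of 2.32 (SE 0.14).

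The same list holds genes that MAPK signalling switches on, several of which feed back on it. The ETS factor Etv5 read 6.74, 6.35 and 6.61 in wild type and 9.36, 9.65 and 9.58 in SmoM2, a rise of 2.97 (SE 0.17, 7.81-fold; limma, adjusted p = 5.69e-08). The inhibitor Spry4 read 4.52, 4.74 and 4.20 against 6.23, 6.36 and 6.79, a rise of 1.97 (SE 0.18), and its relative Spry2 rose by 0.95 (SE 0.13). The ERK phosphatase Dusp6 read 9.35, 9.53 and 9.33 against 9.92, 10.26 and 10.38, a rise of 0.78 (SE 0.12). Etv5 and these inhibitors of the pathway were thus higher in the same arrays. In the list of immediate early and dissociation stress genes 4 of 30 rose and 1 fell, with a median of 0.04. The share that passed, 16.7%, was close to the 17% of all genes, so the list as a whole did not stand out. Egr3 rose by 1.32 (SE 0.22) and Egr2 by 0.76 (SE 0.15), while Fos read 12.14, 11.63 and 12.05 against 11.48, 11.76 and 11.66, with overlap, and did not pass (adjusted p = 0.218); 2 members of this list fell without SmoM2 array 3.

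The insulin-like growth factor axis had calls in both directions, 3 of 16 up and 3 down, and all 6 held. Irs1, the adaptor below the IGF receptor, read 9.91, 9.65 and 9.70 in wild type and 10.98, 11.20 and 11.12 in SmoM2, a rise of 1.34 (SE 0.11; limma, adjusted p = 2.12e-06). Igfbp5, a secreted IGF-binding protein, fell from 10.21, 9.68 and 9.79 to 7.21, 7.11 and 7.26, a difference of -2.70 (SE 0.16, 6.49-fold). Another binding protein, Igfbp3, rose by 1.11 (SE 0.17), the related Igfbpl1 fell by 1.03 (SE 0.11), and the RNA-binding protein gene Igf2bp3 rose by 1.21 (SE 0.13). The ligand Igf2 fell, as given among the hedgehog targets. Members of the axis therefore differed among themselves, with binding proteins on either side.

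In the Notch pathway 7 of 22 measured genes rose and 2 fell, with a median of 0.07. The ligand Jag1 read 7.13, 7.40 and 6.75 in wild type and 9.01, 8.97 and 9.04 in SmoM2, a rise of 1.91 (SE 0.16, 3.76-fold; limma, adjusted p = 1.93e-06). The receptors Notch1 (1.21, SE 0.19) and Notch2 (1.28, SE 0.12) and the glycosyltransferase Lfng, which tunes the receptors' response to ligand (1.39, SE 0.11), rose as well. The target gene Hes5 rose by 1.5 (SE 0.42, adjusted p = 0.0266), but its SmoM2 arrays were spread widely at 6.19, 8.01 and 6.92 against 5.59, 5.18 and 5.85, and it did not pass without wild type array 2 (adjusted p = 0.0985) or SmoM2 arrays 2 (0.119) or 3 (0.053). Calls held for 5 of the rises; without wild type array 3 or any of the 3 SmoM2 arrays 1 gene fell in place of 2.

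Wnt pathway genes rose in 9 of 39 cases (23.1%) and fell in 6 (15.4%), against 18.7% and 20.8% of all measured list members. Several of the rises were those of receptors and secreted modulators. The receptor Fzd1 read 8.38, 8.36 and 8.41 in wild type and 9.95, 9.90 and 10.05 in SmoM2, a rise of 1.58 (SE 0.11; limma, adjusted p = 4.24e-07). The R-spondin receptor Lgr5 rose by 1.77 (SE 0.19) and the ligand Rspo1 by 1.76 (SE 0.28), together with the inhibitors Sfrp2 (1.29, SE 0.18) and Wif1 (1.19, SE 0.15). Enhancers and inhibitors of the pathway were thus higher side by side. The number that fell was 1 without wild type array 2, 2 without wild type array 3 or SmoM2 array 2 and 3 without SmoM2 array 1. It was also 2 after quantile normalization again or median centring. Of the Wnt calls, 5 rises and 0 falls held. Of 34 BMP and TGF-beta genes 3 rose (8.82%) and 7 fell (20.6%), with 4 falls without wild type array 3 or SmoM2 array 2. Bmp5 read 6.58, 6.83 and 6.59 against 8.70, 8.72 and 8.62, a rise of 2.01 (SE 0.13), while the ligands Bmp4 (-1.23, SE 0.19) and Bmp6 (-0.97, SE 0.14) fell. Bmp4 is also on the list of oligodendrocyte lineage markers, most of which fell.

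Molecules by which cells adhere and read their surroundings changed in part. Of 33 cadherins and protocadherins, 12 rose and 2 fell, and 9 rises held. Cdh20 read 6.10, 5.90 and 5.77 in wild type and 7.95, 8.15 and 8.18 in SmoM2, a rise of 2.17 (SE 0.13, 4.49-fold; limma, adjusted p = 6.72e-08). Pcdh18 rose by 1.64 (SE 0.13), Cdh4 by 1.35 (SE 0.13) and Pcdh20 by 1.18 (SE 0.21). The falls were 0 by limma without wild type array 2, and 1 without wild type array 3 or SmoM2 arrays 2 or 3. Of 20 ephrins and Eph receptors, which mediate repulsion at cell contacts, 4 rose (20%) and 2 fell (10%). Among all measured list members these shares were 18.7% and 20.8%. Epha8 read 4.90, 4.90 and 5.34 against 7.33, 7.41 and 6.96, a rise of 2.19 (SE 0.21), Epha5 rose by 1.87 (SE 0.16) and Ephb1 fell by 1.03 (SE 0.15). These 3 were the calls of the list that held: without any single array other than wild type array 1 the rises numbered 2, and without wild type arrays 2 or 3 or SmoM2 arrays 1 or 2 the falls numbered 1.

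Guidance genes of the semaphorin, netrin and Slit families fell in 9 of 45 cases and rose in 4, with a median of -0.24. The share that fell, 20%, was above the 9.46% of all genes but close to the 20.8% of all measured list members. The share that rose was 8.89%, against 7.56% of all genes. Sema3e read 4.46, 4.55 and 4.31 in wild type and 7.59, 7.32 and 7.58 in SmoM2, a rise of 3.05 (SE 0.20, 8.30-fold; limma, adjusted p = 1.53e-07). Its relative Sema3d went the other way, from 7.32, 7.70 and 7.32 to 5.53, 5.86 and 5.30, a difference of -1.88 (SE 0.18). Both are secreted class 3 semaphorins, so this class was not uniform. The Slit receptor Robo2 rose by 1.02 (SE 0.16) and the netrin-G gene Ntng1 by 1.04 (SE 0.17).

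Of 53 collagens, integrins and other matrix genes, 12 rose (22.6%) and 8 fell (15.1%), against 18.7% and 20.8% of all measured list members. The collagen receptor Ddr2 read 6.42, 6.62 and 6.27 in wild type and 8.04, 8.06 and 8.02 in SmoM2, a rise of 1.60 (SE 0.12; limma, adjusted p = 8.62e-07). The integrin Itga9 rose by 1.51 (SE 0.17), the laminin chain Lama5 by 1.48 (SE 0.13) and the fibrillar collagen Col11a1 by 1.36 (SE 0.12). Tnr, tenascin-R of perineuronal matrix, which oligodendrocytes and interneurons make, fell from 7.34, 7.82 and 7.38 to 5.59, 6.07 and 5.13, a difference of -1.92 (SE 0.23), and the protease inhibitor Timp2 fell by 0.92 (SE 0.20). Calls held for 11 of the rises and 3 of the falls; the falls numbered 4 and 3 without wild type arrays 2 and 3 and 5, 3 and 5 without SmoM2 arrays 1, 2 and 3.

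Channels and transmitter receptors fell more often than they rose. Of 39 voltage-gated and potassium channels 16 fell and 1 rose, with a median of -0.31, and 10 of the falls held. Kcna1, a potassium channel of axons, read 6.85, 7.37 and 7.69 in wild type and 5.74, 5.64 and 5.14 in SmoM2, a difference of -1.79 (SE 0.28; limma, adjusted p = 0.000481), and its partner Kcna2 fell by 1.05 (SE 0.19). The calcium channel genes Cacnb4 (-1.25, SE 0.14) and Cacna1e (-1.03, SE 0.13) fell as well. The calcium-activated potassium channel Kcnma1 was the single rise, at 0.59 (SE 0.12). Of 36 neurotransmitter receptors 9 fell (25%) and 3 rose (8.33%), against 20.8% and 18.7% of all measured list members. The nicotinic receptor Chrna3 fell by 1.28 (SE 0.13) and the GABA-A receptor subunit Gabra2 fell by 1.20 (SE 0.15), whereas the glutamate receptor subunits Gria3 (1.22, SE 0.14) and Grin3a (1.11, SE 0.18) rose. Receptors that fell numbered 5 without SmoM2 array 3. Markers of GABAergic interneurons were lower in the same arrays, and their part in these falls was not tested.

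Genes of synaptic vesicle release fell in 14 of 36 cases and rose in 3, with a median of -0.25. Genes of the fusion machinery were among those that fell. The calcium sensor Syt1 read 8.04, 7.86 and 7.90 in wild type and 7.14, 6.96 and 6.61 in SmoM2, a difference of -1.03 (SE 0.13; limma, adjusted p = 8.82e-05). The vesicle protein gene Sv2a fell by 1.08 (SE 0.17) and the SNARE gene Snap25 fell by 0.79 (SE 0.11). Other family members were higher: Syt13, a synaptotagmin, read 5.98, 6.08 and 6.15 against 9.25, 9.0 and 9.03, a rise of 3.02 (SE 0.16, 8.12-fold), and complexin 2 (Cplx2) rose by 1.12 (SE 0.16). Doc2b, a calcium sensor of release that is outside this list, read 4.25, 4.25 and 3.97 against 7.27, 7.32 and 7.02. The falls numbered 9 and 8 without wild type arrays 2 and 3 and 8, 7 and 8 without SmoM2 arrays 1, 2 and 3, and 7 held, as did all 3 rises.

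Neuropeptides and secreted synapse proteins held some of the largest changes in both directions, with 6 of 35 higher and 10 lower. Vip, vasoactive intestinal peptide, read 2.90, 3.70 and 3.47 in wild type and 6.70, 7.20 and 6.75 in SmoM2, a rise of 3.53 (SE 0.24; limma, adjusted p = 2.94e-07). Cbln4, a cerebellin that bridges synapses, read 2.65, 2.62 and 3.15 against 6.00, 6.76 and 6.22, and Saa1, an acute phase protein gene, read 2.40, 2.56 and 2.67 against 5.95, 6.30 and 5.88. In wild type all 3 were near or below the lower quartiles of the arrays. The complement-related synaptic organizer C1ql3 was measured at 4.85, 5.50 and 5.02 in wild type and rose by 1.89 (SE 0.16). Of the granin genes, whose products fill secretory granules, Chgb fell by 1.41 (SE 0.14) and Scg2 fell by 1.32 (SE 0.16). All 6 rises held, and the falls numbered 6 without SmoM2 array 1.

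In the handling of retinoids and thyroid hormone, 3 of 27 genes rose and 6 fell. Rbp4 and Crym had the largest rises of the list. Rbp4, the carrier of retinol, read 6.23, 6.18 and 6.13 in wild type and 9.42, 9.70 and 9.57 in SmoM2, a rise of 3.38 (SE 0.14, 10.4-fold; limma, adjusted p = 3.21e-09). Crym, a cytosolic thyroid hormone binding protein, read 4.01, 3.96 and 4.0 against 6.73, 6.89 and 7.20, a rise of 2.95 (SE 0.15). The thyroid hormone receptor Thra fell by 0.88 (SE 0.14), the thyroxine transporter Slco1c1, also a vascular and glial gene, fell by 1.11 (SE 0.17), and Aldh1a1, which makes retinoic acid, fell by 1.40 (SE 0.21). A binding protein of the hormone was thus higher and its receptor and transporter lower.

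Metabolic genes changed in part, with more falls than rises in glycolysis and in cholesterol synthesis and uptake. Of 24 glycolysis and lactate genes 3 rose and 8 fell. Hexokinase 2 (Hk2), the inducible first enzyme of the pathway, read 9.08, 8.90 and 9.07 in wild type and 10.96, 11.14 and 11.05 in SmoM2, a rise of 2.03 (SE 0.10, 4.10-fold; limma, adjusted p = 1.94e-08). The later enzyme Tpi1 fell by 0.78 (SE 0.11). The falls numbered 4 without wild type array 2 and 5 without wild type array 3 or SmoM2 array 1. Of 24 genes of cholesterol synthesis and uptake 7 fell and 1 rose, and 4 fell without SmoM2 arrays 1 or 3. Of these 24 genes 20 differed downwards, with a median of -0.2. Hmgcs1, which commits carbon to the pathway, read 12.29, 12.49 and 12.15 against 11.75, 11.67 and 11.85, a difference of -0.55 (SE 0.12), and Tm7sf2 fell by 0.75 (SE 0.13), while the lipid regulator Srebf1 rose by 0.76 (SE 0.17). By limma 0 of 36 oxidative phosphorylation genes passed, 0 had an unadjusted p under 0.05, and their differences lay between -0.16 and 0.20.

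**Figure D3:**
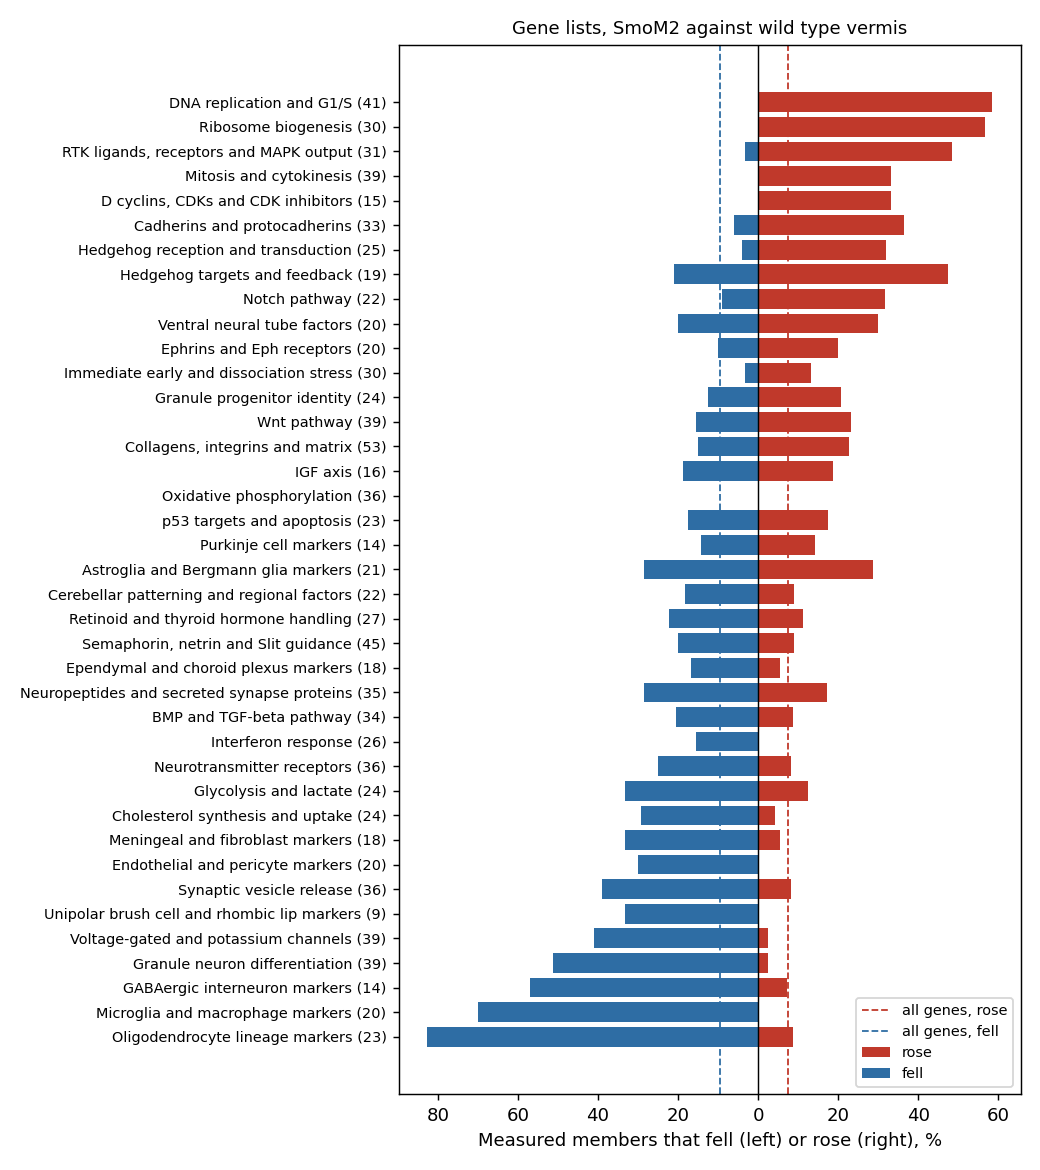
Share of the measured members of each gene list that fell (blue, left) or rose (red, right) in SmoM2 against wild type vermis at an adjusted p under 0.05, in percent, with the number of measured members in brackets. Dashed lines mark the shares among all genes, 9.46% lower and 7.56% higher. Among all measured list members these shares were 20.8% and 18.7%. Replication and ribosome biogenesis lie at the top, oligodendrocyte and microglia markers at the bottom, and oxidative phosphorylation has no bar.

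Survival and interferon genes showed few steady changes. Of 23 p53 targets and apoptosis genes 4 rose and 4 fell. Besides Bcl2, Gadd45a, a stress-induced growth arrest gene, rose by 0.59 (SE 0.12; limma, adjusted p = 0.00478), and Trp53inp1 fell by 0.62 (SE 0.11). The rises numbered 2 without wild type array 3 or SmoM2 array 3; the falls numbered 2 without SmoM2 array 2 and 1 without wild type arrays 2 or 3 or SmoM2 arrays 1 or 3. Of 26 interferon response genes 4 fell and the others did not pass, a share of 15.4% against 17% of all genes. Without wild type arrays 2 or 3 or SmoM2 array 1 the falls numbered 1, and without SmoM2 array 3 they numbered 2.

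Preparations of progenitors hold other cells, and their markers were counted in the same arrays. Oligodendrocyte lineage markers, most of them myelin genes, fell in 19 of 23 cases, with a median of -1.34, and all 19 falls held. The mean level of the list was 7.85 to 8.27 in wild type and 6.75 to 7.12 in SmoM2. Myelin basic protein (Mbp) read 12.31, 12.84 and 12.79 against 10.46, 11.28 and 10.76, a difference of -1.81 (SE 0.21; limma, adjusted p = 4.94e-05). The lineage factor Sox10 read 7.06, 7.17 and 7.10 against 5.57, 5.96 and 5.78, a difference of -1.34 (SE 0.15), and Mag, Mobp, Mog and Gpr17 had differences of -1.87, -1.93, -1.83 and -1.83. The 2 members that rose were Olig1 and Olig2, also on the list of neural tube factors, so these factors went against every other member that passed. The part of oligodendrocytes in the differences of other genes was not tested.

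Markers of GABAergic interneurons fell in 8 of 14 cases and 1 rose, with a median of -0.75. Gad1, which makes GABA, read 7.59, 8.01 and 7.70 in wild type and 6.00, 6.42 and 5.19 in SmoM2, a difference of -1.90 (SE 0.29; limma, adjusted p = 0.000509). Ptf1a, the factor that specifies the GABAergic lineage of the cerebellum, fell from 6.93, 7.15 and 6.99 to 6.04, 5.87 and 5.78, a difference of -1.13 (SE 0.11), and the corepressor Skor1 (-1.52, SE 0.16) and the glycine transporter Slc6a5 (-1.12, SE 0.22) fell. The level of the list was 6.06 to 6.27 against 5.41 to 5.63. The rise did not pass without any single array other than wild type array 2. Of 9 markers of unipolar brush cells and the rhombic lip 3 fell and 6 did not pass. List levels were 6.53 to 6.59 against 6.01 to 6.08, but the median difference was only -0.09 and 3 members differed upwards, so the list did not move as one. Eomes, the defining factor of unipolar brush cells, read 8.47, 8.17 and 8.16 against 6.47, 6.10 and 5.76, a difference of -2.15 (SE 0.19, 4.45-fold), and Dmrta1 read 6.17, 5.74 and 5.77 against 3.57, 4.07 and 3.41, which is close to the lower quartiles.

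Purkinje cell markers were mixed, with 2 of 14 higher and 2 lower. Pcp4 fell by 1.26 (SE 0.18; limma, adjusted p = 0.000205), and the forkhead gene Foxp2 read 7.35, 7.28 and 7.33 in wild type and 8.24, 8.33 and 8.32 in SmoM2, a rise of 0.97 (SE 0.12). Without any single array other than wild type array 1, 1 marker fell in place of 2. Astroglia and Bergmann glia markers were split as well, 6 of 21 higher and 6 lower, and list levels overlapped (8.89 to 9.11 against 8.75 to 9.06). The members that rose include genes that neural progenitors also express: Nes read 6.23, 6.59 and 6.70 against 7.45, 7.71 and 7.67 (1.10, SE 0.14), Sox9 rose by 0.93 (SE 0.11) and Vim by 0.90 (SE 0.10). The members that fell include genes of mature astroglia, among them the gap junction gene Gja1 (-0.55, SE 0.11) and the filament gene Septin4 (-0.94, SE 0.12); 3 fell without wild type array 3 or SmoM2 array 2.

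Immune and vascular markers that passed were lower in SmoM2. Of 20 microglia and macrophage markers 14 fell and the others did not pass, with list levels of 6.13 to 6.25 in wild type and 5.31 to 5.72 in SmoM2. Csf1r, the receptor on which microglia depend, read 8.96, 8.81 and 9.06 against 8.19, 7.87 and 7.49, a difference of -1.09 (SE 0.19; limma, adjusted p = 0.00152), and the protease Ctss fell by 1.08 (SE 0.19). The count was 9 without wild type arrays 2 or 3 or SmoM2 array 2 and 7 without SmoM2 array 3. Of 20 endothelial and pericyte markers 6 fell, with levels of 6.06 to 6.32 against 5.47 to 5.89, and the count was 2 without wild type arrays 2 or 3 or SmoM2 array 1 and 3 without SmoM2 array 2. Slco1a4, a transporter of the blood-brain barrier, read 6.37, 6.23 and 6.27 against 4.57, 4.85 and 4.79, a difference of -1.56 (SE 0.12).

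Meningeal and fibroblast markers fell in 6 of 18 cases and rose in 1, with levels of 6.69 to 6.78 against 6.40 to 6.58; Ogn, a matrix proteoglycan, fell by 1.60 (SE 0.20; limma, adjusted p = 0.000101), and 3 fell without SmoM2 arrays 1 or 2, while 2 rose without wild type array 1. Of 18 ependymal and choroid plexus markers 3 fell and 1 rose, with levels of 5.69 to 5.91 against 5.19 to 5.61; 7 fell without wild type array 1 and 1 without wild type array 2 or SmoM2 array 3. The rise was Clic6, a chloride channel gene of choroid plexus, at 5.14, 5.49 and 5.69 against 7.23, 7.32 and 6.75 (1.66, SE 0.18). Of 6 red blood cell markers 1 fell, with 0 falls by limma without wild type arrays 2 or 3 and 2 without SmoM2 array 3. Of 4 sex-linked transcripts the 3 Y-linked ones differed downwards, 2 of them without overlap, and Xist differed upwards by 0.61. The Y-linked Eif2s3y was the only one to pass and fell by 0.94 (SE 0.29; limma, adjusted p = 0.0381). It did not pass without wild type array 3 (adjusted p = 0.156) or SmoM2 arrays 1, 2 or 3 (0.074, 0.14 and 0.0598). Xist read 11.18, 11.61 and 10.5 against 11.65, 11.94 and 11.52, with overlap. The labels give no sex for the pools, and the part of sex in the results was not tested.

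**Figure D4:**
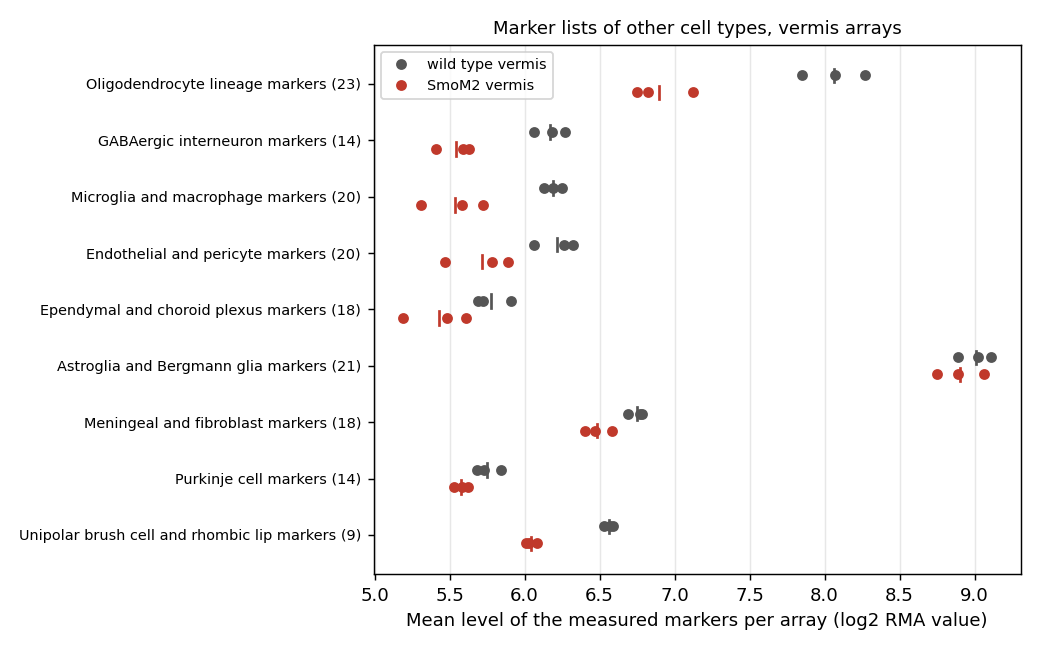
Mean log2 level of the measured markers of other cell types on each vermis array (horizontal axis), with the number of measured markers in brackets. Dots are arrays of wild type (grey) and SmoM2 (red) and ticks are group means. Among the lists shown, the groups are separate for all except astroglia and Bergmann glia. The gap is widest for oligodendrocyte markers (7.85 to 8.27 against 6.75 to 7.12). A mean can rest on few members: for unipolar brush cell and rhombic lip markers the median difference was -0.09.

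The SmoM2 effect in the vermis was set against that in the hemispheres, where 2694 genes passed. By limma 0 genes (0%) passed the test of the difference between both effects, and the smallest adjusted p was 1. An unadjusted p under 0.05 was reached by 564 of 18194 genes. That is a smaller share than the 0.05 that this threshold passes where no gene differs. Hedgehog targets had similar values in the hemispheres, with differences of 1.68 for Gli1, 1.69 for Ptch1 and 2.66 for Hhip. Deviations from the group means correlated at 0.14 to 0.53 between same-numbered vermis and hemisphere arrays of a genotype. With the pool number as a random block 0 genes passed by limma and the smallest adjusted p was 0.152. In that fit 1297 genes had an unadjusted p under 0.05, a larger share than 0.05.

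The 5 genes with the smallest unadjusted p for the difference are given as values. Dbx1 rose by 2.77 in the vermis and differed by 1.61 in the hemispheres, Rflna, which organizes actin filaments, by 1.93 and 1.04, and Lfng by 1.39 and 0.64. Adipoq, the hormone adiponectin, fell by 2.09 in the vermis and differed by -1.22 in the hemispheres, and the matrix gene Matn4 fell by 1.35 and differed by -0.54. All 5 differed more in the vermis, where Dbx1 read 7.23, 7.18 and 7.27 in SmoM2 and Adipoq read 5.62, 5.51 and 5.57 in wild type. None of the 5 passed after adjustment (adjusted p = 1 for each).

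**Figure D5:**
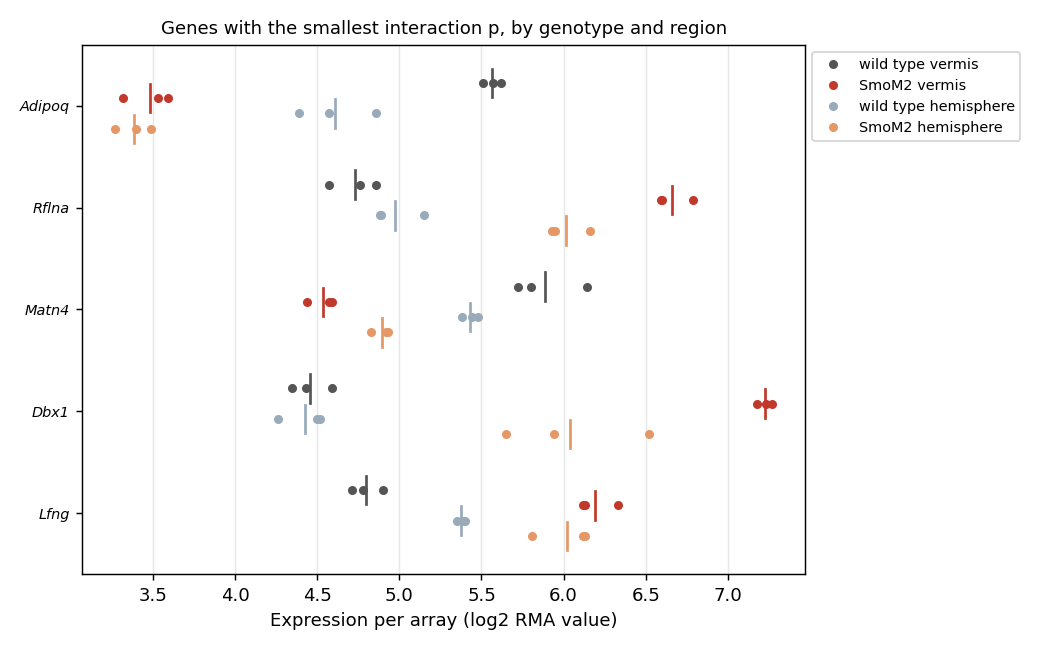
Log2 expression per array (horizontal axis) of the 5 genes with the smallest unadjusted p for a difference between the vermis and hemisphere effects of SmoM2, in all 4 groups of 3 arrays. Dots are arrays and ticks are group means; the distance between wild type and SmoM2 is wider in the vermis for each gene, for Dbx1 2.77 against 1.61, and no gene passed the adjusted test.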

How the data were processed

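Total RNA was read on Affymetrix mouse genome arrays, per the labels. Each probe set has a deposited log2 value that the authors made with Partek and RMA, per the submitters' processing notes. RMA subtracts background, quantile-normalizes and summarises probes, which compresses differences near background and leaves no detection call; the sources used here give no tool versions. The reported fit used these values as deposited.

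Of 45101 probe sets, 34958 had 1 symbol in the platform annotation, 932 had several and 9211 had none, and 64 were controls. For 34754 probe sets the gene was in the reference gene table. Each of 18194 genes was represented by its probe set of highest mean across the 12 arrays, and 9012 genes had several.

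The main fit was limma 3.58.1 (R 4.3.3; lmFit, eBayes) with a mean for each of 4 groups and 8 residual degrees of freedom. Tests were two-sided, p-values were Benjamini-Hochberg adjusted over all genes, and adjusted p under 0.05 counted as passed. With 3 arrays a group the number of arrays limits the precision, and p-values measure the spread between pools. A test on simulated data preceded the fit.

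Named genes were the 15 largest rises and falls among genes that passed with groups apart, members of 41 gene lists, the 5 smallest interaction p and hedgehog targets with a promoter match. The comparison, its lists (1073 members, 1012 measured) and this rule were chosen with earlier results of these data known. Lists are described by counts and medians. Promoter windows came from RefSeq (GRCm38.p6).

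Replicate numbers shared by wild type and SmoM2 vermis were checked as pairs: correlations of deviations were 0.18, -0.09 and 0.03, so they were not used as pairs. Between vermis and hemisphere arrays of a genotype they were 0.53, 0.34 and 0.51 in wild type and 0.14, 0.27 and 0.17 in SmoM2. Vermis arrays of different number and genotype gave -0.18 to 0.16, so pairing of the regions is less clear in SmoM2. Vermis and hemisphere arrays of different number were not compared. The pool was tried as a block for the interaction. Other alternatives were the mean of all probe sets, quantile normalization again, median centring, brighter genes only, vermis arrays only, other moderation, array weights and leaving out each vermis array.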

Additional observations from a re-analysis of the deposited data

How the results depend on the processing

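Alternatives changed how many genes passed more than which way they went. The call was opposite for 1 gene with the mean of all probe sets and for 0 genes in each of the other 15 alternatives. Among all genes, the number lower in SmoM2 was 893 with only the brighter genes, where fewer genes were tested, against 1721 in the reported fit. Leaving out each vermis array in turn gave 1756 to 3290 passing genes, 795 to 1458 higher and 959 to 1832 lower. Over all alternatives, 1756 to 4482 genes passed, 301 to 487 of the passing genes differed at least 2-fold, and 285 to 475 list members passed. For leaving out 1 array the last 2 ranges were 438 to 487 and 285 to 391. The share of passing genes that were higher was 44.4% as reported, 49.7% after quantile normalization again, 51.5% after median centring and 59.3% with only the brighter genes. With the replicate number as a block across wild type and SmoM2, 3745 genes passed, of which 3073 were among the 3096 reported, but these numbers share no pairing by the check of deviations. For the difference between vermis and hemisphere effects 0 genes passed in limma in each setting run; unadjusted p under 0.05 numbered 235 to 1297, and with the pool as a fixed block, chosen after seeing the data, 1287. RMA values near the lower quartiles (3.24 to 3.42) limit what can be said of genes that are low in a group.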
